A study of Mus musculus with 18 samples.

Results

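The 10 genes of tubular injury and repair described here were followed in 18 pools of thick ascending limb (TAL) of the mouse kidney. The 10 genes are *Lcn2*, *Spp1*, *Clu*, *Havcr1*, *Cd9*, *Lgals3*, *Sprr1a*, *Krt7*, *Krt18* and *Sox9*, and they were taken by their symbols from the 55401 genes of the expression tables, of which 33307 had counts. The members were selected on earlier results of these pools, their levels and fold changes between the groups being known, so that the values and adjusted p-values given for them are a description and not independent support. RNA was sequenced from 5 pools of cortical TAL (CTAL) and 5 pools of medullary TAL (MTAL) of wild type (WT) mice, and from 5 pools of CTAL and 3 pools of MTAL of *Cldn10* conditional knock-out (cKO) mice. The study asked how the transcriptome of each segment changes when *Cldn10*, a claudin that forms a paracellular sodium pore, is depleted. WT and cKO mice were adult males aged 4 to 10 months, both carried floxed *Cldn10* alleles (Cldn10 fl/fl), and cKO mice carried in addition Ksp-Cre, in which the promoter of Ksp-cadherin drives the recombinase in distal nephron segments. Tubules were dissected by hand after liberase digestion, with 1 animal per pool. The strain is labelled C57BL/6J, and the methods describe a background that was mostly C57BL/6. The study reports calcium deposits in the outer medulla of cKO kidneys, which made the dissection of cKO MTAL difficult. It left out 2 cKO MTAL pools on quality and 1 cKO CTAL pool on its *Cldn10* level, and these pools were not analysed here.

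Injured tubular cells lose part of their differentiated programme and switch on genes for secreted proteins, surface receptors, keratins and repair factors, some of which appear in urine and serve as injury markers. *Lcn2* encodes the siderophore-binding lipocalin NGAL, which the TAL and the collecting duct release after injury, whereas *Havcr1* encodes KIM-1, the phosphatidylserine receptor of injured proximal tubule cells. *Spp1* (osteopontin) and *Clu* (clusterin) are secreted also by healthy distal tubules, and *Krt7*, *Krt18* and *Cd9* are normal products of distal epithelia, so that the level in WT pools is part of the description.

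Promoter sequences are shown for 4 members whose cKO MTAL and WT MTAL pools did not overlap. They are the stretches upstream of the RefSeq transcription start that lie outside annotated exons, on the GRCm38.p6 build and on the strand of the gene, written 5′ to 3′. Capitals mark matches to 5 motifs searched on both strands, namely the AP-1 site (TGANTCA), the TATA box (TATAAA), the STAT site (TTCNNNGAA), the GC box (GGGCGG) and the NF-kB site. RefSeq windows were matched for 8 of the 10 members, and *Clu* and *Sox9* are named only.
Sprr1a, chr3:92485896-92486131, minus strand: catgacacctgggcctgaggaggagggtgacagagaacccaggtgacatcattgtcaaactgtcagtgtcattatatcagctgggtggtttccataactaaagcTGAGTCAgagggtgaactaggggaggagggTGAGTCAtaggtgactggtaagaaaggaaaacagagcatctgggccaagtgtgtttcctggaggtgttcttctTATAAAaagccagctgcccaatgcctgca
Spp1, chr5:104434861-104435110, plus strand: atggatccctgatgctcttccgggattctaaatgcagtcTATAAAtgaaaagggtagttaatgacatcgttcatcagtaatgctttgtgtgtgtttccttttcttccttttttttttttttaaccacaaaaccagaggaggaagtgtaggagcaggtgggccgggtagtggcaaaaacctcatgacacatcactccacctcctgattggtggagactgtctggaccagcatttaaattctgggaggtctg
Lgals3, chr14:47373610-47373812, plus strand: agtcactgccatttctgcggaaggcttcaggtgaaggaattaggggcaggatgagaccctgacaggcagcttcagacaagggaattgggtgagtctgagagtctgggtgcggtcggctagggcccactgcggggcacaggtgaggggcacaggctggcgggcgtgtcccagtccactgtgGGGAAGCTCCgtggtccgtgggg
Cd9, chr6:125494792-125495010, minus strand: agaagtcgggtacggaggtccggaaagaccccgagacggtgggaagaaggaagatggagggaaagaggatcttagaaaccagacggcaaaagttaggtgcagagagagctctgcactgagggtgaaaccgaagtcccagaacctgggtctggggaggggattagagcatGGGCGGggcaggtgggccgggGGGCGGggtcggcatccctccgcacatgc
The *Sprr1a* stretch held 2 AP-1 sites, at -146 to -140 and -116 to -110 from the transcription start, and a TATA box at -43 to -38. An AP-1 site was present in 6.75% and a TATA box in 12.4% of 32851 windows of the same 250 upstream bases over all genes. The *Cd9* stretch held 2 GC boxes, a motif present in 32.7% of the windows, the *Spp1* stretch held a TATA box at -211 to -206, and the *Lgals3* stretch held an NF-kB site at -70 to -61, a motif present in 7.25% of the windows. The *Lgals3* stretch lies within the longer gene model of GENCODE, upstream of the RefSeq start. The STAT site, present in 7.02% of the windows, had no match in these 4 stretches, and the searched motifs did not overlap each other in them. A match describes letters in the window and was not tested as a binding site.

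Total counts ranged from 10824299 to 62339939 per pool, and levels are given as CPM (counts scaled to a common depth) on library sizes normalized with TMM. *Cldn10* lay between 384 and 579 CPM in WT CTAL and between 156 and 185 CPM in cKO CTAL, and between 653 and 810 CPM in WT MTAL and between 151 and 296 CPM in cKO MTAL, so that its transcript was reduced but present in every cKO pool. *Slc12a1*, which defines the TAL, was at 11424 to 16145 CPM in all pools. WT CTAL replicate 1 has conflicting labels, its genotype label reading knock-out and its pool name WT; its *Cldn10* level lies in the WT range and it was used as WT. All pools held transcripts of Y-linked genes, and 7 pools (cKO CTAL replicate 2, WT CTAL replicates 3 and 22, WT MTAL replicates 11, 15, 17 and 19) held in addition 6.49 to 8.76 CPM of *Xist*, which is made from the inactive X chromosome, against 0.233 to 0.739 CPM in the others. *Xist* was therefore in 4 of 5 WT MTAL and 0 of 3 cKO MTAL pools, and within MTAL the 2 cannot be told apart by leaving out pools. In bulk samples, a change in the share of cells that express a gene and a change in RNA per cell cannot be told apart either.

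The members differed most between cKO MTAL and WT MTAL. Of the 8 members tested there, 7 were higher in cKO MTAL past both thresholds, which were 0.05 for the adjusted p and 1 for the absolute log2 fold change (edgeR quasi-likelihood test, Benjamini-Hochberg over 12060 genes). Over all genes tested, 3.74% passed both thresholds, 2.69% in the higher and 1.04% in the lower direction, and 7.01% passed the adjusted p alone. The median log2 fold change of the 8 tested members was 1.93, against 0.0012 over all genes. *Sprr1a* reached the minimum of 3 CPM in 3 pools through the cKO MTAL pools alone, so it could enter the test only by being higher there. *Havcr1* and *Sox9* were too low to be tested. Counted without a test, 9 of the 10 members had every cKO MTAL pool above every WT MTAL pool, a pattern found in 6.82% of all genes tested, and *Havcr1* was the exception. The opposite pattern was seen in 0 members and in 7.56% of all genes.

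**Figure D1:**
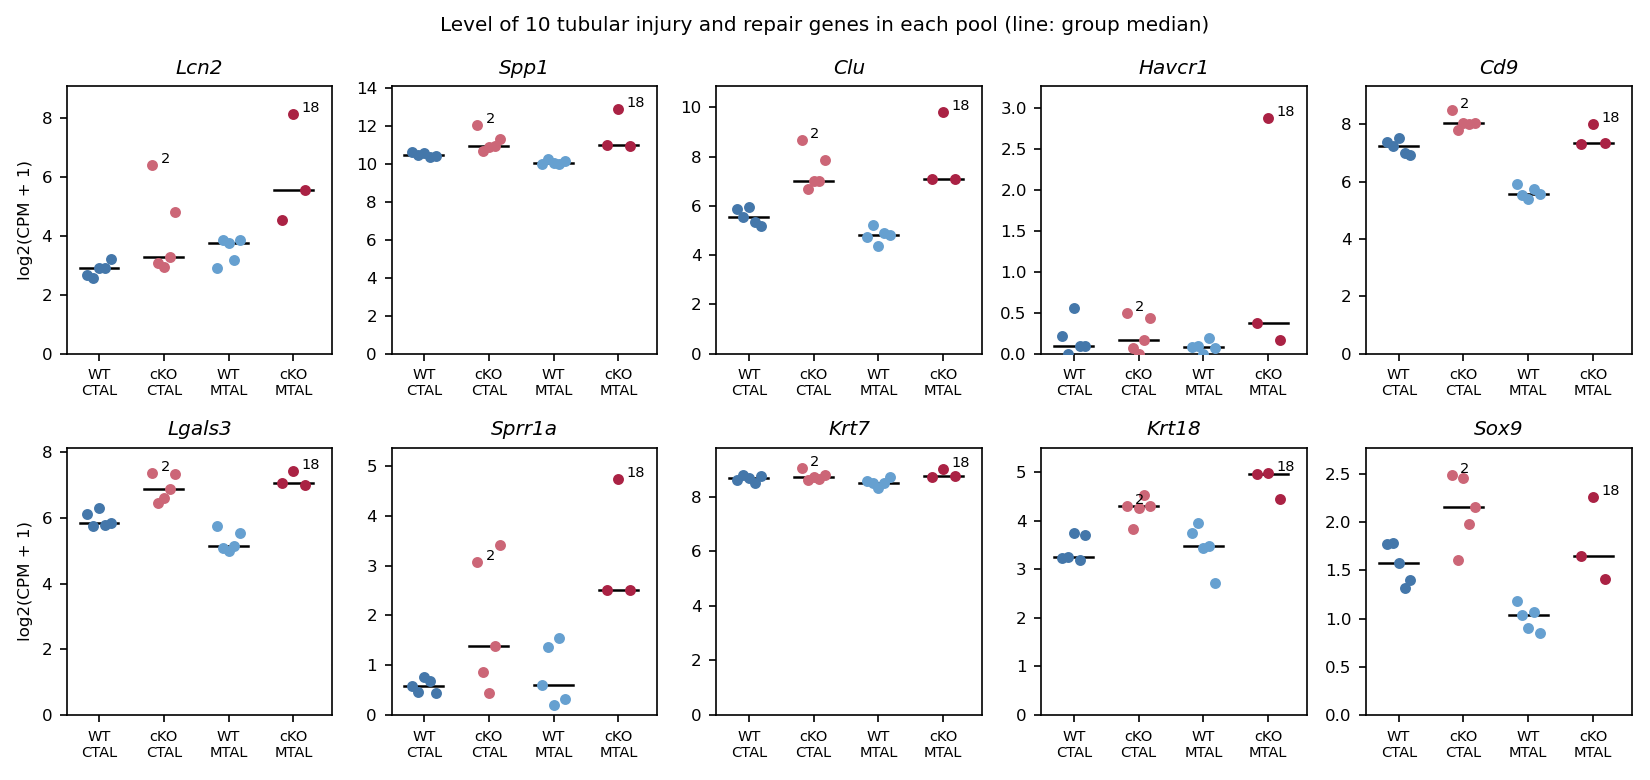
Level of the 10 genes in each of the 18 pools, on a log2(CPM + 1) axis, with 1 point per pool and a line at the group median. The numbered points are cKO CTAL replicate 2 and cKO MTAL replicate 18, and replicate 18 is the highest cKO MTAL pool in all 10 panels.

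Among the secreted proteins, *Lcn2* (chr2:32384633-32388252) was at 22.1, 282 and 46.0 CPM in cKO MTAL replicates 16, 18 and 20. WT MTAL replicates 11, 13, 15, 17 and 19 were at 6.47, 13.6, 12.5, 7.996 and 13.6 CPM. All cKO MTAL pools lay above the WT MTAL pools, and replicate 18 exceeded the next pool 6.13-fold. The fold change was 10.8 (log2 3.44 ± 0.55 SE, adjusted p = 0.0014, edgeR), and without replicate 18 it was 1.66 on the log2 scale (adjusted p = 0.0063, edgeR). In CTAL, *Lcn2* was high in cKO replicates 2 (84.6 CPM) and 21 (27.4 CPM), whereas cKO replicates 4, 7 and 9 were at 7.51, 6.70 and 8.62 CPM. WT CTAL replicates 1, 3, 8, 10 and 22 were at 5.33, 4.89, 6.45, 6.44 and 8.18 CPM, a range that holds 2 of the 5 cKO CTAL pools. The log2 fold change of 2.09 ± 0.60 did not pass the threshold (adjusted p = 0.122, edgeR) and was 0.98 without cKO CTAL replicate 2.

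*Clu* (chr14:65968483-65981547), which encodes an extracellular chaperone, was among the members with the largest folds in MTAL. It was at 137, 886 and 135 CPM in cKO MTAL replicates 16, 18 and 20 and at 25.4, 36.7, 19.8, 28.5 and 27.1 CPM in WT MTAL replicates 11, 13, 15, 17 and 19. The lowest cKO MTAL pool therefore stood well above the highest WT MTAL pool. The fold change was 14.1 (log2 3.81 ± 0.46, adjusted p = 0.00013, edgeR), and the log2 value fell to 2.31 without replicate 18, with an adjusted p of 2.07e-05 (edgeR). DESeq2 gave no p-value for *Clu* in this comparison. *Clu* was also past both thresholds in CTAL, with 403, 102, 129, 127 and 233 CPM in cKO replicates 2, 4, 7, 9 and 21 against 56.8, 46.1, 60.7, 39.1 and 35.4 CPM in WT replicates 1, 3, 8, 10 and 22. The groups did not overlap, and the fold change was 4.14 (log2 2.05 ± 0.32, adjusted p = 0.0048, edgeR). Without cKO CTAL replicate 2 the log2 fold change was 1.62 (adjusted p = 0.0026, edgeR). Between the WT segments *Clu* was lower in MTAL, by a log2 fold change of -0.79 ± 0.17 (adjusted p = 0.0085, edgeR), which is under the fold threshold.

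*Spp1* (chr5:104435118-104441050), which encodes the secreted phosphoprotein osteopontin, was the most abundant member in all groups. It was at 2058, 7835 and 1961 CPM in cKO MTAL replicates 16, 18 and 20 and at 1043, 1241, 1050.2, 1015 and 1149 CPM in WT MTAL replicates 11, 13, 15, 17 and 19. The pools did not overlap, and replicate 18 was 3.81-fold above the next. The fold change was 3.61 (log2 1.85 ± 0.32, adjusted p = 0.0026, edgeR). Without replicate 18 the log2 fold change was 0.88 ± 0.11, which no longer reached the fold threshold although its adjusted p was 0.00039 (edgeR). In CTAL, cKO replicates 2, 4, 7, 9 and 21 were at 4345, 1671, 1896, 1994 and 2559 CPM, all above the WT range of 1355 to 1613 CPM. The log2 fold change of 0.75 ± 0.20 did not pass (adjusted p = 0.101, edgeR). *Spp1* overlaps the gene model *Gm42793* on the same strand, and the counting of shared reads is not given in the sources used here.

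**Figure D2:**
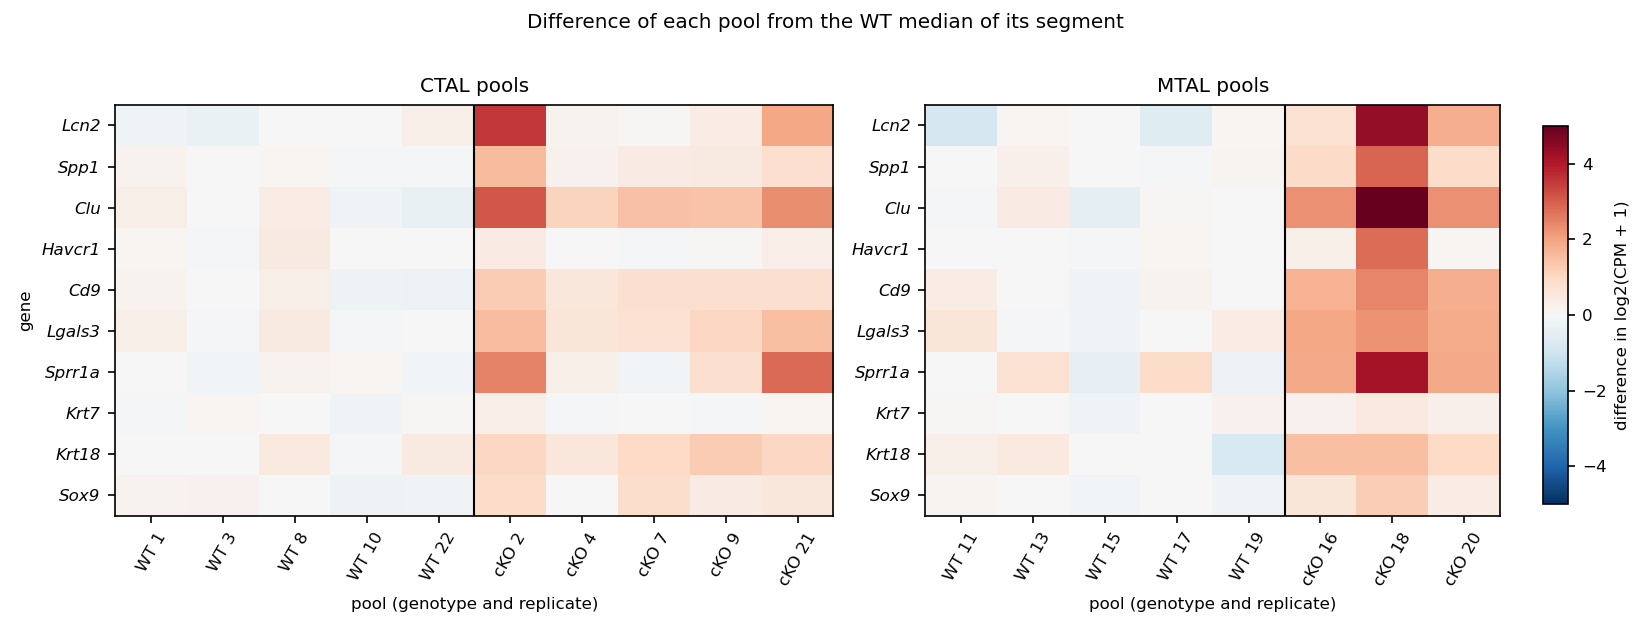
Difference of each pool from the WT median of its own segment, in log2(CPM + 1), for the 10 genes (vertical) and the CTAL pools (left) and MTAL pools (right), WT pools left of each black line. Red squares lie above the WT median. The darkest column is cKO MTAL replicate 18 among the MTAL pools and cKO CTAL replicate 2 among the CTAL pools.

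Among the surface proteins, *Havcr1* was near the detection limit in all groups but 1 pool. It was at 6.37 CPM in cKO MTAL replicate 18, from 129 estimated counts, and at 0.295 and 0.119 CPM in replicates 16 and 20, from 4 and 2 counts. WT pools lay between 0 and 0.476 CPM and cKO CTAL pools between 0 and 0.404 CPM. A count of 0 in WT CTAL replicate 3 allows a level of up to 0.282 CPM, and in WT MTAL replicate 15 of up to 0.153 CPM, by counting error only. The proximal tubule markers, which name the usual site of *Havcr1*, summed over 6 genes to 17.1, 68.6 and 62.8 CPM in cKO MTAL replicates 16, 18 and 20. The part of proximal tubule cells in the *Havcr1* value of replicate 18 was not tested. 

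*Cd9* (chr6:125460266-125494791), which encodes a tetraspanin that organizes membrane microdomains, had the smallest adjusted p of the members in MTAL and ranked 4 among 12060 genes by p. Levels were 158, 256 and 162 CPM in cKO MTAL replicates 16, 18 and 20 and 59.7, 45.4, 41.2, 52.4 and 46.0 CPM in WT MTAL replicates 11, 13, 15, 17 and 19. The groups were widely separated, with little spread within WT. The fold change was 3.94 (log2 1.98 ± 0.16, adjusted p = 7.52e-06, edgeR), and 1.72 on the log2 scale without replicate 18. In CTAL, cKO replicates 2, 4, 7, 9 and 21 were at 360.04, 221, 262, 258 and 261 CPM and WT replicates 1, 3, 8, 10 and 22 at 168, 149, 182, 127 and 123 CPM. The groups did not overlap, and the log2 fold change of 0.85 ± 0.13 had an adjusted p of 0.0048 (edgeR) but was under the fold threshold. *Cd9* was the sole member past both thresholds between the WT segments, 3.06-fold lower in WT MTAL than in WT CTAL (log2 -1.61 ± 0.13, adjusted p = 7.07e-07, edgeR), a comparison in which 2.32% of 11650 genes passed and 1.67% were lower. The gene models *Gm28809* and *Gm26728* overlap *Cd9* on the opposite strand.

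The genotype effect on *Cd9* was larger in MTAL than in CTAL. The interaction of genotype and segment, tested in 1 fit of all 18 pools, was 1.11 ± 0.22 on the log2 scale (adjusted p = 0.035, edgeR), and *Cd9* was the 1 member past the threshold among 9 tested, in a test that 0.286% of 12586 genes passed. This call was lost in 8 of 18 fits that each left out 1 pool, with adjusted p-values of up to 0.0743 (edgeR) and a log2 difference between 0.86 and 1.24 over all 18. The pools whose removal lost it were WT CTAL replicates 1 and 8, cKO CTAL replicates 4, 7, 9 and 21 and WT MTAL replicates 15 and 19. For the other members the interaction did not pass. The log2 difference was 1.75 for *Clu* (95% interval 0.46 to 3.03, adjusted p = 0.173, edgeR), 1.33 for *Lcn2* (-0.58 to 3.24, adjusted p = 0.534, edgeR) and 0.86 for *Lgals3* (0.31 to 1.42, adjusted p = 0.121, edgeR). Without cKO MTAL replicate 18 the log2 difference was 0.25 for *Clu*, -0.44 for *Lcn2* and 0.74 for *Lgals3*. *Lcn2* passed in MTAL and not in CTAL, and this alone does not show that the segments differ.

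*Lgals3* (chr14:47367751-47386160) encodes galectin-3, a beta-galactoside-binding lectin that is raised in injured tubules and in macrophages. It was at 133, 169.9 and 128 CPM in cKO MTAL replicates 16, 18 and 20 and at 53.4, 32.7, 30.6, 34.5 and 45.4 CPM in WT MTAL replicates 11, 13, 15, 17 and 19. The 3 cKO MTAL pools lay close together, and the fold change was 3.68 (log2 1.88 ± 0.17, adjusted p = 1.43e-05, edgeR), or 1.74 on the log2 scale without replicate 18. In CTAL, cKO replicates 2, 4, 7, 9 and 21 were at 165, 86.8, 95.9, 117 and 159.9 CPM, all above the WT range of 52.8 to 77.2 CPM. The log2 fold change of 1.001 ± 0.17 sat at the fold threshold (adjusted p = 0.0098, edgeR). The call was lost without cKO CTAL replicates 2 or 21 or WT CTAL replicates 3, 10 or 22, at log2 fold changes of 0.88 to 0.97. The markers of immune cells, which also express *Lgals3*, summed over 7 genes to 119 to 144 CPM in cKO MTAL and 93.6 to 141 CPM in WT MTAL, and 0 of the 5 markers tested passed the thresholds. *Cd74* made up most of this sum, and the macrophage gene *Lyz2* alone was at 17.3 to 23.7 CPM in cKO MTAL and 10.3 to 15.5 CPM in WT MTAL, without overlap. In CTAL their sum was 138 to 218 CPM in cKO and 149 to 197 CPM in WT pools. The ranges of the sums overlapped between the genotypes in both segments, and their part in the level of *Lgals3* was not tested.

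*Sprr1a* (chr3:92483952-92485895), a small proline-rich protein of the cornified envelope and of regenerating nerve, was at 1.90 CPM or less in every WT pool. It was at 4.72, 25.8 and 4.68 CPM in cKO MTAL replicates 16, 18 and 20, from 64, 523 and 79 estimated counts, and at 0.520, 1.58, 0.153, 1.90 and 0.250 CPM in WT MTAL replicates 11, 13, 15, 17 and 19. The fold change was 12.6 (log2 3.65 ± 0.72, adjusted p = 0.0065, edgeR), and without any 1 of the cKO MTAL pools the gene did not reach the minimum for the test. In CTAL it was not tested, and it was high in the same cKO pools as *Lcn2*, at 9.72 CPM in replicate 21 and 7.38 CPM in replicate 2, against 0.824, 0.355 and 1.62 CPM in replicates 4, 7 and 9 and 0.367 to 0.689 CPM in WT CTAL.

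The 2 keratins of the list differed. *Krt18* (chr15:102028180-102032027), a type I keratin of simple epithelia, was at 30.2, 30.6 and 20.9 CPM in cKO MTAL replicates 16, 18 and 20 and at 12.4, 14.4, 9.82, 10.1 and 5.61 CPM in WT MTAL replicates 11, 13, 15, 17 and 19. The groups did not overlap, and the fold change was 2.60 (log2 1.38 ± 0.27, adjusted p = 0.0066, edgeR). In CTAL it was at 13.1 to 22.1 CPM in cKO pools and 8.06 to 12.4 CPM in WT pools, a log2 fold change of 0.86 ± 0.17 with an adjusted p of 0.023 (edgeR) that was under the fold threshold. Without cKO CTAL replicate 2 this adjusted p was 0.056 and without WT CTAL replicate 10 it was 0.0807 (edgeR). *Krt7* (chr15:101411043-101430313), a type II keratin of distal epithelia, was at 426 to 517 CPM in cKO MTAL and 319 to 421 CPM in WT MTAL, and its log2 fold change of 0.32 (95% interval 0.07 to 0.57) did not pass (adjusted p = 0.107, edgeR). In CTAL the log2 fold change of *Krt7* was 0.08 (-0.12 to 0.27, adjusted p = 0.804, edgeR), with 393 to 525.9 CPM in cKO and 366 to 446 CPM in WT pools. *Krt8*, the type II partner with which keratin 18 forms filaments, was looked up after its values were known, and was at 122 to 182 CPM in cKO MTAL and 104 to 136 CPM in WT MTAL (log2 fold change 0.37 ± 0.14, adjusted p = 0.116, edgeR).

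*Sox9* (chr11:112782224-112787760), a transcription factor that marks tubular cells during repair, stayed under 5 CPM in every pool. It was at 2.14, 3.80 and 1.66 CPM in cKO MTAL replicates 16, 18 and 20, above the WT MTAL range of 0.801 to 1.27 CPM. In CTAL cKO pools were at 2.04 to 4.61 CPM and WT pools at 1.48 to 2.45 CPM, with 1 of 5 cKO pools inside the WT range. These genotype differences were not tested because the gene did not reach the filter. Between cKO MTAL and cKO CTAL it was tested, with a log2 fold change of -0.43 (95% interval -1.29 to 0.43, adjusted p = 0.607, edgeR).

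In the CTAL comparison as a whole, 7 members were tested and 2, *Clu* and *Lgals3*, were past both thresholds, in a comparison in which 0.47% of 11702 genes passed and 0.256% were higher. With *Cd9* and *Krt18*, 4 members had an adjusted p under 0.05, against 1.22% of all genes. In 5 of the 10 members every cKO CTAL pool lay above every WT CTAL pool, against 1.86% of the genes tested. These 5 were *Clu*, *Lgals3*, *Cd9*, *Spp1* and *Krt18*.

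Between the WT segments 7 members were tested. Besides *Cd9* and *Clu*, *Lgals3* (log2 -0.66 ± 0.16, adjusted p = 0.015, edgeR) and *Spp1* (log2 -0.42 ± 0.08, adjusted p = 0.0043, edgeR) had lower levels in MTAL at an adjusted p under 0.05 with folds under the threshold, against 6.87% of all genes past the adjusted p in either direction. In *Cd9*, *Spp1* and *Sox9* every WT MTAL pool lay below every WT CTAL pool, a pattern found in 4.32% of all genes. *Lcn2* did not pass (log2 0.78 ± 0.24, adjusted p = 0.0702, edgeR). Between the cKO segments 9 members were tested and 0 passed at an adjusted p under 0.05, in a comparison in which 0.938% of 12044 genes were past both thresholds. In 0 members were the cKO MTAL pools all above or all below the cKO CTAL pools, against 4.2% and 5.87% of all genes. Of the 9, 3 had an unadjusted p under 0.05 (edgeR), namely *Lcn2* (log2 fold change 2.13, 95% interval 0.22 to 4.03), *Cd9* (-0.47, -0.86 to -0.08) and *Krt18* (0.62, 0.21 to 1.02). The intervals are wide, and this comparison shares its pools with the genotype comparisons. For *Lcn2* the log2 fold change between the cKO segments was 0.38 without cKO MTAL replicate 18 and 3.26 without cKO CTAL replicate 2.

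**Figure D3:**
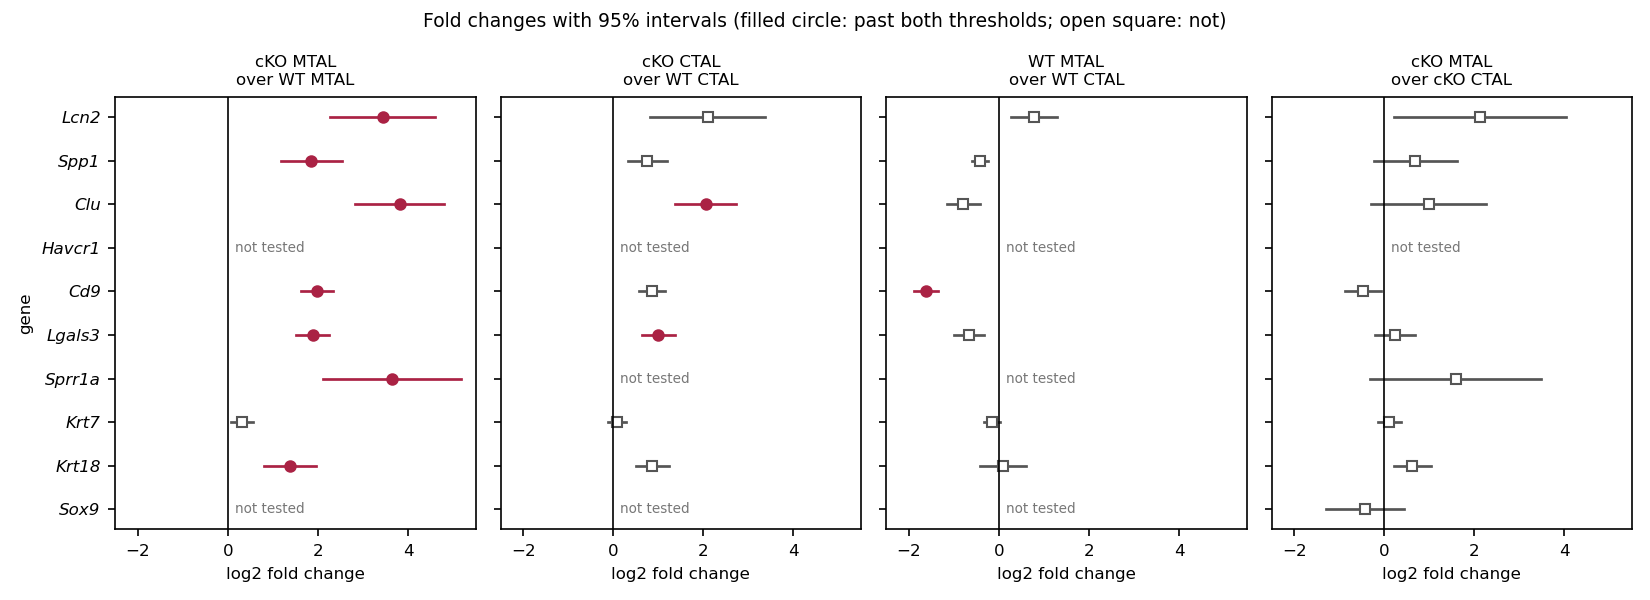
Log2 fold change of each gene (horizontal) in 4 comparisons, with 95% intervals from the edgeR fits; filled circles are past both thresholds and open squares are not. In cKO MTAL over WT MTAL 7 of the 8 tested genes are filled, in cKO CTAL over WT CTAL 2 of 7, between the WT segments 1 of 7 and between the cKO segments 0 of 9.

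The cKO pools were not alike. Replicate 18 was the highest of the 3 cKO MTAL pools for 10 of the 10 members, by factors over the next pool from 1.01 for *Krt18* to 21.6 for *Havcr1*, with 6.48 for *Clu* and 5.47 for *Sprr1a*. Among cKO CTAL pools replicate 2 was the highest for 8 of the 10, and replicates 21 and 9 for *Sprr1a* and *Krt18*. Among the members detected in every cKO CTAL pool, *Sprr1a* and *Lcn2* had the widest spread, and their highest pools were 27.4-fold and 12.6-fold above their lowest, against 1.88-fold and 1.67-fold in WT CTAL. *Krt7* spanned 1.34-fold or less in every group. Without replicate 18, 5 members were past both thresholds in MTAL. *Spp1* was lost on its fold and *Sprr1a* was no longer tested, whereas *Lcn2*, *Clu*, *Cd9*, *Lgals3* and *Krt18* passed. WT MTAL replicate 13, which lacks *Xist* as the cKO MTAL pools do, lay below every cKO MTAL pool for 10 of the 10 members. For 9 of them this follows from the lack of overlap given above, so it holds no separate information on *Xist*. For *Havcr1* it rests on 3 counts in WT MTAL replicate 13 and 2 counts in cKO MTAL replicate 20. When all 18 pools were fitted together and *Xist* was added as a covariate, an alternative chosen after seeing the data, 7 members were past both thresholds in MTAL, at log2 fold changes of 2.07 for *Cd9* and 3.95 for *Clu*, and 483 genes were called against 807 in the joint fit that left *Xist* out of the model.

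Markers of neighbouring cell types were measured beside the members. In cKO MTAL, replicate 20 rather than 18 had the highest sum of principal cell markers (98.3, 98.7 and 849 CPM in replicates 16, 18 and 20 over 6 genes) and of intercalated cell markers (42.2, 58.1 and 249 CPM over 6 genes). WT MTAL sums were 56.4 to 258 CPM and 19.9 to 110.1 CPM. Replicate 18, the highest for the members, was thus close to replicate 16 in both. It was the highest of the 3 for fibroblast and pericyte markers (27.9, 56.5 and 33.7 CPM in replicates 16, 18 and 20, against 25.6 to 44.5 CPM in WT MTAL), and also for proximal tubule, thin limb, distal convoluted tubule and urothelial markers, as it was for the members. The intercalated cell gene *Atp6v0d2* passed the thresholds in both segments, at 8.18 to 35.5 CPM in cKO MTAL against 2.95 to 16.1 CPM in WT MTAL and at 15.6 to 73.0 CPM in cKO CTAL against 9.22 to 15.5 CPM in WT CTAL. Urothelial markers summed to 10.1 CPM or less in every pool over 6 genes, and 1 of them was high enough to be tested. Endothelial markers were lower in cKO MTAL (128 to 233 CPM over 6 genes) than in WT MTAL (234 to 355 CPM), and *Emcn* and *Cdh5* passed the thresholds. Proximal tubule markers were at 17.1 to 68.6 CPM in cKO MTAL and 13.1 to 26.4 CPM in WT MTAL, with *Slc34a1* past the thresholds, and thin limb markers at 112 to 149 CPM and 141 to 224 CPM over 5 genes, with *Cldn4* higher and *Slc14a2* lower past the thresholds. In cKO CTAL, replicate 2 was the highest for proximal tubule (65.5 CPM), intercalated cell (166 CPM), distal convoluted tubule (61.4 CPM over 3 genes) and fibroblast and pericyte markers (57.0 CPM over 6 genes) as it was for 8 members. The part of these cells in the members' levels was not tested.

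**Figure D4:**
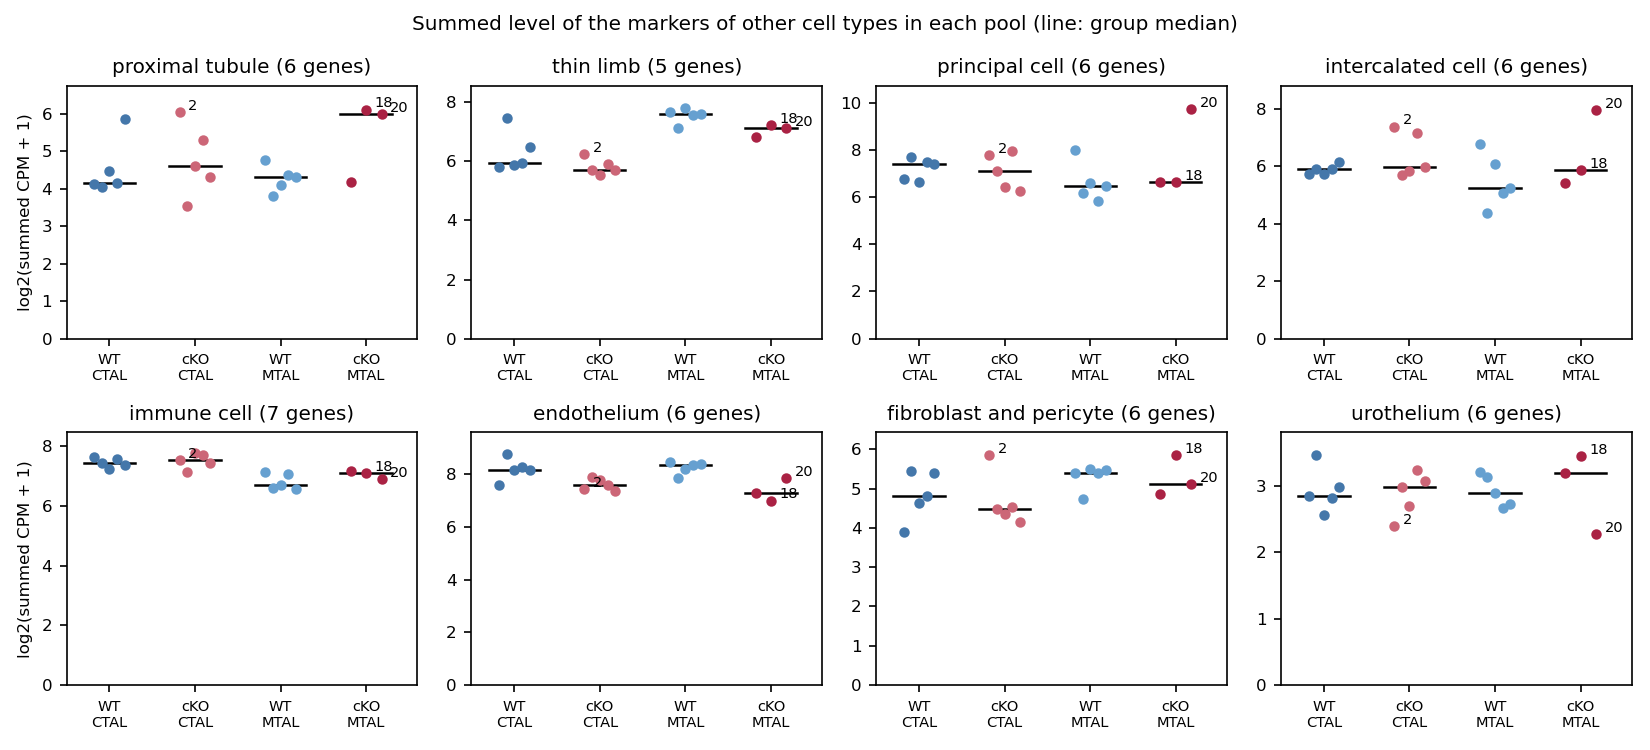
Summed level of the markers of 8 cell types in each pool, on a log2(summed CPM + 1) axis, with a line at the group median and the number of genes per list in each title. Replicate 20 and not 18 is the cKO MTAL pool with the highest principal and intercalated cell sums, and cKO CTAL replicate 2 is the highest of its group for proximal tubule, intercalated cell and fibroblast and pericyte markers.

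The order of the members by level was compared on TPM, a unit that corrects for transcript length. In WT MTAL the median TPM was 1097 for *Spp1*, 272 for *Krt7*, 57.0 for *Cd9*, 40.1 for *Lgals3*, 27.4 for *Clu*, 18.1 for *Lcn2*, 8.66 for *Krt18*, 0.873 for *Sprr1a*, 0.368 for *Sox9* and 0.05 for *Havcr1*. The pool ranges of *Cd9* and *Lgals3*, of *Clu* and *Lcn2*, of *Lcn2* and *Krt18* and of *Sprr1a* and *Sox9* overlapped, and those of the other neighbours did not. In cKO MTAL the order of the medians was the same, at 2430 for *Spp1*, 352 for *Krt7*, 236 for *Cd9*, 161 for *Lgals3*, 127 for *Clu*, 74.7 for *Lcn2*, 27.7 for *Krt18*, 8.61 for *Sprr1a*, 0.777 for *Sox9* and 0.215 for *Havcr1*. There the ranges of *Krt7*, *Cd9*, *Lgals3*, *Clu* and *Lcn2* overlapped from each gene to the next. Those of *Krt18* and *Sprr1a* and of *Sox9* and *Havcr1* overlapped too. In cKO CTAL *Cd9* (357 TPM) had a median above that of *Krt7* (341 TPM), but the pool ranges overlapped, at 314 to 463 TPM for *Cd9* and 328 to 425 TPM for *Krt7*. In WT CTAL *Krt7* (304 TPM) was above *Cd9* (183 TPM). *Spp1* was again the most abundant, at 1527 TPM in WT CTAL and 2521 TPM in cKO CTAL.

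Other injury and repair genes were taken from a list of 48 that excludes the members. Of the 35 tested in MTAL, 5 were higher in cKO MTAL past both thresholds, against the 2.69% of all genes given above, and 0 were lower, with a median log2 fold change of 0.37 against 0.0012 over all genes. The 5 were *Krt19*, a keratin of distal and ductal epithelia (log2 2.17 ± 0.58, adjusted p = 0.034, edgeR), the stress cytokine *Gdf15* (2.17 ± 0.45, adjusted p = 0.0092, edgeR), the haem-degrading enzyme *Hmox1* (1.61 ± 0.39, adjusted p = 0.021, edgeR), the calcium-binding protein *S100a6* (1.22 ± 0.26, adjusted p = 0.010, edgeR) and the TWEAK receptor *Tnfrsf12a* (1.19 ± 0.30, adjusted p = 0.024, edgeR). *Gdf15* was at 11.9 to 22.6 CPM in cKO MTAL and 1.90 to 7.63 CPM in WT MTAL. *Krt19*, *Gdf15* and *Hmox1* reached the minimum for the test only with the cKO MTAL pools. Leaving out single pools gave 2 to 6 higher genes of this list, with 2 without cKO MTAL replicate 16 or WT MTAL replicate 17, 3 without cKO MTAL replicate 20 and 6 without replicate 18. In CTAL, of 33 tested, 0 were higher and 1, the transcription factor *Myc*, was lower in cKO (log2 -1.17), with a median of -0.13. Without WT CTAL replicate 3 *Myc* did not pass.

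Between the segments the same list had 2 of 33 higher in WT MTAL, *Nupr1* (log2 2.05) and *Socs3* (1.64), against 0.652% of all genes in that direction, and 7 of 36 higher in cKO MTAL than in cKO CTAL, against 0.623% of all genes, led by *Socs3* (2.38), *Nupr1* (2.19), *Atf3* (1.71), *Hbegf* (1.41), *S100a6* (1.37) and *Myc* (1.25). Several of these are stress-responsive transcription factors and signalling genes. The WT segments overlapped for *Socs3*, at 28.8 to 314 CPM in WT MTAL and 24.6 to 45.0 CPM in WT CTAL (adjusted p = 0.043, edgeR). Leaving out single pools gave 1 to 5 genes between the WT segments, with 5 without WT MTAL replicate 17 and 1 without WT CTAL replicates 1, 8 or 10 or WT MTAL replicate 11. Between the cKO segments it gave 5 to 11, with 11 of 34 without cKO MTAL replicate 18. In the interaction *S100a6* (log2 1.47, adjusted p = 0.042, edgeR) was the 1 gene of 37 that passed, and leaving out single pools gave 0 genes of the list in 12 of 18 fits and 5 without cKO MTAL replicate 18.

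Partners of the members were listed separately, 30 genes for receptors, partner keratins, tetraspanins, lectins, envelope proteins and SOX factors. In MTAL 4 of 27 tested were higher in cKO MTAL and 1 was lower, against 2.69% and 1.04% of all genes. The higher ones were *Krt19*, which is in both lists, the integrin subunit *Itgb3* (log2 1.66 ± 0.44, adjusted p = 0.035, edgeR), the lipocalin 2 receptor *Slc22a17* (1.56 ± 0.20, adjusted p = 0.00019, edgeR) and the envelope protein envoplakin, *Evpl* (1.05 ± 0.24, adjusted p = 0.014, edgeR). *Itgb3*, like *Krt19*, reached the minimum for the test only with the cKO MTAL pools. The osteopontin-binding integrin subunit *Itga9* was lower (-1.74 ± 0.34, adjusted p = 0.0062, edgeR). *Slc22a17* was at 71.4 to 92.5 CPM in cKO MTAL, 21.6 to 41.2 CPM in WT MTAL, 65.5 to 93.0 CPM in WT CTAL and 70.2 to 113 CPM in cKO CTAL. Its cKO MTAL pools thus lay near the CTAL pools, and its WT MTAL pools were lower than those of WT CTAL (log2 -1.50, adjusted p = 1.89e-05, edgeR). The interaction of genotype and segment for *Slc22a17* was 1.31 ± 0.24 on the log2 scale (adjusted p = 0.013, edgeR), and it was the 1 partner of 27 past the threshold there. *Itga9* was higher in WT MTAL than in WT CTAL (log2 1.54), and in the CTAL genotype comparison and between the cKO segments 0 partners of 27 passed both thresholds.

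The pattern of each member over the 18 pools was compared with that of 12588 genes by the root mean square difference of z-scores of log2(CPM + 1), which is 0 for identical patterns and had a median near 1.37. *Spp1* and *Clu* were each other's nearest gene (0.252), although they lie on different chromosomes. *Lcn2* and *Sprr1a* ranked 6 and 5 in each other's lists (0.439), behind *Clint1* (0.393) for *Lcn2* and *Tmem176b* (0.329) for *Sprr1a*. The genes nearest to *Cd9* were *Pth1r*, which encodes the parathyroid hormone receptor (0.222), and *Fam124a* (0.230), and the nearest member was *Sox9*, at rank 53. The genes nearest to *Lgals3* were *Cx3cl1*, which encodes the chemokine fractalkine (0.327), and *Csrp1* (0.328). For *Spp1* the nearest genes outside the members were *Atp11a* (0.268) and *Stat3* (0.358), and for *Clu* they were *Anxa6* (0.290) and the lysosomal protease gene *Ctsd* (0.305). *Krt18* was nearest to *Ucp2* (0.435) and *Krt7* to *Adgrg1* (0.472), and their nearest members were at ranks 20 and 18. *Sox9* was nearest to *Dusp3* (0.330). These distances describe 18 pools that share 4 group means, and genes with the same group means are close on them whatever their function.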

How the data were processed

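Poly-A RNA of 18 pools was sequenced. The authors trimmed the reads (fastp in the paper, Trimmomatic in the submitters' processing notes) and mapped and quantified them with DRAGEN on mm10 with a gencode annotation; the use of strand in counting and the treatment of multiply mapped reads are not given in the sources used here. The estimated counts were deposited without normalization and hold decimals in 6.26% to 9.53% of genes, so that they were rounded before count tests. The TPM values deposited by the authors are scaled for transcript length and depth, and served for levels between genes and as an alternative. Of the gene identifiers 99.5% matched the annotation of GRCm38.

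The filter on low values asked for 3 CPM in 5 or more pools (3 or more where cKO MTAL entered and for the interaction), and the genes that passed were tested with the edgeR (version 4.0.16, R version 4.3.3) quasi-likelihood F test after TMM, on the pools compared only (all 18 for the interaction). A call needed an adjusted p (Benjamini-Hochberg) under 0.05 and a 2-fold difference, 1 on the log2 scale (for the interaction, the adjusted p alone). Values after ± are standard errors, and intervals are at 95% and cover the spread between pools and counting error. The limit of 3 counts behind a 0 is at 95% and covers counting error only. P-values measure the spread between pools from distinct animals. Replicate pairs differed by more than sampling noise, with a chi-square per gene of 14.8 or more. The scripts were tested on simulated data.

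The members and the lists of injury genes, partners and markers were chosen with earlier results of these data known. Named genes were all members, up to 6 genes per list and comparison with the largest absolute log2 fold change among those called, and the 2 genes nearest in pattern to each member. Alternatives were DESeq2 (version 1.42.0), its size factors, limma (version 3.58.1) on log2 TPM with pseudocounts of 1 and 0.1, no filter, left-out pools, exclusion of pools with *Xist* at 1 CPM or more, 1 fit of all groups, and WT CTAL replicate 1 counted as cKO.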

Additional observations from a re-analysis of the deposited data

Results flagged for a closer look

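Of 30 member and group pairs with 5 pools, 1 held a pool far from the others by Dixon's criterion, where chance gives about 1.5. This was *Lcn2* in cKO CTAL, where replicate 2 was at 84.6 CPM and the next pool, replicate 21, at 27.4 CPM, with a gap of 0.735 of the group's range. The cKO MTAL pairs hold 3 pools each and were not checked this way, so the distance of cKO MTAL replicate 18 from the other pools is not part of this count.

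The genotype effect on *Cd9* differed between MTAL and CTAL by 1.11 on the log2 scale (adjusted p = 0.035, edgeR interaction test, 18 pools), the larger effect being in MTAL. The call was lost in 8 of 18 fits that each left out 1 pool, with limma, with a term for *Xist* and with WT CTAL replicate 1 counted as cKO. All 3 cKO MTAL pools and all 5 cKO CTAL pools lay above every WT pool of their segment.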

How the results depend on the processing

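No paired analysis was possible because the groups share no replicate numbers. Pools with *Xist* could be left out in CTAL and between the cKO segments, but in no comparison with WT MTAL, which keeps 1 pool without it. Removing the pools 18 and 2 together and the *Xist* term were chosen after seeing the data. DESeq2, whose likelihood ratio test the study used, gave no p-value and no adjusted p for *Sprr1a* and *Clu* in MTAL. With it 5 members were called there.

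Leaving out 1 pool at a time, members called ranged from 5 to 7 in MTAL, 1 to 2 in CTAL and 0 to 1 in the interaction, and all genes called from 259 to 606 in MTAL, 36 to 66 in CTAL, 71 to 515 between the cKO segments and 15 to 570 in the interaction. The counts 606, 515 and 570 were without cKO MTAL replicate 18, 259 without cKO MTAL replicate 20, 36 without cKO CTAL replicate 2, and 71 and 15 without cKO CTAL replicate 9. In MTAL the count was also low without WT MTAL replicates 15 (293) and 17 (300), and between the cKO segments without cKO CTAL replicate 7 (75). In MTAL all genes called were 869 with no filter, 224 and 222 with limma (pseudocounts 1 and 0.1) and 807 in 1 fit of all groups. In CTAL 1 member (*Clu*) was called with DESeq2 size factors, without pools with *Xist* (19 genes in all) and with WT CTAL replicate 1 as cKO. Between the cKO segments 1 member was called with no filter (344 genes) and with the *Xist* term (359 genes), and all genes called were 388 with DESeq2, 63 and 54 with limma, 354 in 1 fit and 412 without both pools. In the interaction 2 members were called with DESeq2 (353 genes), 0 with limma (7 and 8 genes), with replicate 1 as cKO (17 genes) and with the *Xist* term (21 genes), and all genes called were 79 with no filter and 479 without both pools.

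Signs changed for members that had not passed. With 1 pool left out, *Spp1* ranged from -0.26 to 1.01 and *Clu* from -0.50 to 1.41 between the cKO segments, and *Lcn2* from -0.44 to 2.46 and *Sprr1a* from -0.58 to 1.37 in the interaction, each negative without cKO MTAL replicate 18. Without both pools *Spp1*, *Clu* and *Sprr1a* were at -0.00087, -0.10 and -0.22. *Krt7* between the cKO segments was -0.0066 with limma at both pseudocounts. *Krt18* between the WT segments was -0.0014 with limma at the pseudocount of 0.1 only, and ranged from -0.062 to 0.24 with 1 pool left out. Of 761 further values 727 kept direction and side of the threshold, 21 lost and 2 gained a call, and 11 changed sign; the cause was not tested.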
